A study of Homo sapiens with 4 samples.

Results

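The annexins are a family of membrane-binding proteins, and 10 of their genes, ANXA10, ANXA1, ANXA2, ANXA3, ANXA4, ANXA5, ANXA6, ANXA7, ANXA8 and ANXA11, were followed here among the 16923 genes named on the array. Every probe annotated to these symbols was taken, which gave 15 of 24526 probes. ANXA10 was chosen by its log2 difference between the cell-lines in these same signals, and the other members as its family with the results of this contrast already known, so the differences of all 10 are given as descriptions and without a test. RNA of A549/146b and A549/vec cells was hybridised to 4 Illumina bead arrays, 2 for each cell-line, and replicate 1 and replicate 2 are taken as the 2 occasions on which both cell-lines were cultured side by side. A549 is an established line from a human lung adenocarcinoma. A549/146b cells carry a lentiviral vector, pLemiR, in which the precursor of miR-146b sits in the untranslated end of a red fluorescent protein gene driven by the cytomegalovirus promoter, and A549/vec cells carry the same vector with no insert. Both are puromycin-selected populations, 1 of each, so the effect of the insert cannot be told apart from other differences between these populations. The arrays do not measure the mature microRNA, and the inserted product was not checked here. In bulk RNA, fewer cells that express a gene cannot be told apart from less of its RNA per cell.

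Annexins share a folded core that binds negatively charged phospholipids, in most members when calcium is bound, and differ in their amino-terminal tails, which bind partners such as S100 proteins. They line the inner face of the plasma membrane and of endosomes, link membranes to each other and to actin, and take part in secretion, endocytosis and the resealing of torn membrane. ANXA10 is an unusual member that has lost most of the family's calcium-binding sites and is best known from the lining of the stomach. ANXA1 and ANXA2 are abundant in epithelial cells, where ANXA1 is known for restraining inflammation and ANXA2 for holding plasminogen activator at the cell surface together with S100A10.

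The mature sequences of the inserted precursor are shown first, because they are what A549/146b cells were built to make. They come from RefSeq, build GRCh38.p14, lie at chr10:102436520-102436542 and chr10:102436557-102436578 on the plus strand, and have the seed, bases 2 to 8, in capitals. The arms have different seeds.
hsa-miR-146b-5p: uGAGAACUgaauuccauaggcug
hsa-miR-146b-3p: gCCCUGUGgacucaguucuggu

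The promoters of ANXA10 and ANXA1 are shown because theirs were the only matched member windows with no CpG, and those of ANXA2 and ANXA5 for contrast. The bases directly before the RefSeq start of transcription are printed, on the gene's own strand, with the motif TATAAA in capitals. They lie at chr4:168092287-168092536 (plus strand) for ANXA10, chr9:73151615-73151864 (plus strand) for ANXA1, chr15:60397987-60398086 (minus strand) for ANXA2 and chr4:121696981-121697080 (minus strand) for ANXA5, all in GRCh38.p14.
ANXA10: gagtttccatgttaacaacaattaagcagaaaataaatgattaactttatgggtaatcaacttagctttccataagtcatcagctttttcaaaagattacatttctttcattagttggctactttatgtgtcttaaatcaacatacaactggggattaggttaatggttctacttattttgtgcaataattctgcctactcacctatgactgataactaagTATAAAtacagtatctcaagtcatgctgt
ANXA1: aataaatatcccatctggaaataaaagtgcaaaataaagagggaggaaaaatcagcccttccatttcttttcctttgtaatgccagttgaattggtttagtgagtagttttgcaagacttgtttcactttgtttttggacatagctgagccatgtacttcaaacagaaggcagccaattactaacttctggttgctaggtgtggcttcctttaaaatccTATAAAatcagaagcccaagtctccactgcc
ANXA2: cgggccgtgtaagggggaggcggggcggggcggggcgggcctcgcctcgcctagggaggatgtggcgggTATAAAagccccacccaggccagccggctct
ANXA5: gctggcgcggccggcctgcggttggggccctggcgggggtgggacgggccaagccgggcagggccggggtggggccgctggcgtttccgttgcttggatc

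RefSeq promoter windows of 300 bases, with 250 before the start and 50 after it, matched 9 of the 10 members, all but ANXA8, with 13 windows in all. The ANXA10 window held 32.7% G and C and not 1 CpG dinucleotide, and 2.36% of 35116 human promoter windows had a lower G and C content. The ANXA1 window held 37.7% G and C, again with 0 CpG, and 7.57% of windows had less. TATAAA began at base -29 in ANXA10 and at base -31 in ANXA1, counted from the start of transcription. Of all windows, 1.37% held this motif on either strand together with no CpG at all. The windows of ANXA10 and ANXA1 were picked out for having no CpG, so this share is a description. ANXA2 had the motif at base -31 too, but in a window with 76.0% G and C and 32 CpG. ANXA2 also held the motifs GGGCGG and TGACTCA, which 45.0% and 4.95% of all windows hold on either strand. GGGCGG lay in windows of ANXA4, ANXA5, ANXA6, ANXA7 and ANXA11 too, though not in every window of ANXA6 and ANXA11. One of the 3 ANXA11 windows had TATAAA at base -61. The windows of ANXA3, ANXA4, ANXA5, ANXA6 and ANXA7 did not hold TATAAA. The 11 windows other than those of ANXA10 and ANXA1 had 7 to 44 CpG. A motif match describes the letters of a window and does not show that a factor binds there, and whether these features go with the difference between the cell-lines was not tested.

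**Figure D1:**
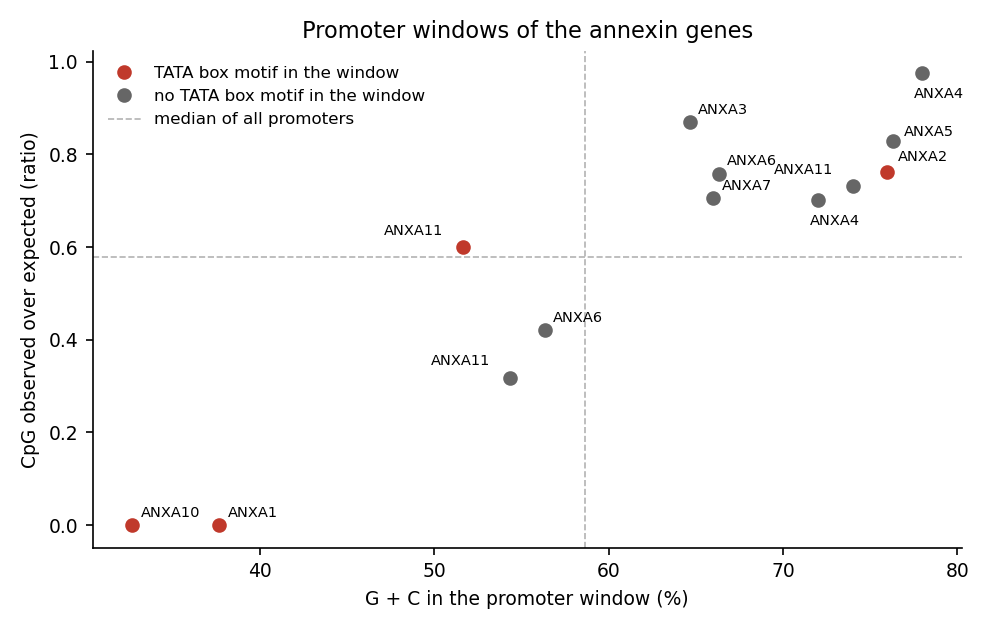
Each point is 1 RefSeq promoter window of a member gene, with its G and C content (%, horizontal) and its ratio of observed to expected CpG (vertical), and dashed lines at the medians of 35116 windows (58.7% and 0.579). ANXA10 and ANXA1 lie alone at a ratio of 0 and below 40% G and C, and red marks windows that hold the TATA box motif.

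ANXA10 was higher in A549/146b cells on both occasions. Its normalized signal was 270.7 and 269.5 in A549/146b replicates 1 and 2, against 150.7 and 152.7 in A549/vec replicates 1 and 2. The groups did not overlap, and the probe was detected above the negative control beads on all 4 arrays. It averaged 270.1 ± 0.898 in A549/146b and 151.7 ± 1.43 in A549/vec (SD, n = 2 each), a ratio of 1.78. On the log2 scale the cell-lines differed by 0.85 (occasion 1) and 0.82 (occasion 2), with a mean of 0.83. A probe was called expressed where GenomeStudio's detection p was below 0.01 on 1 array or more. Among the 10559 expressed probes 1 had a larger increase, and this difference is the value for which ANXA10 was chosen.

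The duplicates of ANXA10 lay very close to each other. The log2 signal of replicate 1 minus that of replicate 2 was 0.01 in A549/146b and -0.02 in A549/vec. The larger of these gaps was 0.0192 in size, against a median of 0.197 for the larger gap over expressed probes, and 0.616% of expressed probes had a smaller one. Before normalization the duplicates were less alike, with signals of 263.9 and 235.2 in A549/146b and 125.8 and 151.3 in A549/vec, and the cell-lines still did not overlap. On its own array the probe ranked 6030 and 6044 of 24526 in A549/146b and 8390 and 8332 in A549/vec. A rank depends on how well a probe binds as well as on the amount of RNA, so it gives no order of RNA levels between genes.

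In the limma fit across the 10559 expressed probes with occasion as a block, 98 probes (0.928%) had an adjusted p under 0.05, of which 46 (0.436%) were higher and 52 (0.492%) lower in A549/146b. ANXA10 was the 1 member probe among the 46, and 0 of the other 11 expressed member probes were called in either direction. Since the members were chosen with these calls known, nothing is read from their count. Of the expressed member probes, 4 had both A549/146b arrays above both A549/vec arrays and 1 had both below, against 22.0% of all expressed probes above and 22.0% below. The other 7 overlapped. Over all expressed probes the array of A549/vec replicate 1 was the least like the others, with r of 0.985 to 0.991 against 0.992 to 0.995 among the rest, and the SD of the differences over probes was 0.289 on occasion 1 and 0.163 on occasion 2. Across the 8 expressed members other than ANXA10, with the brightest probe of each gene, the log2 differences had a median of 0.29 (occasion 1) and 0.11 (occasion 2), beside 0.00037 and 0.00034 over all expressed probes. Without that array the difference of ANXA10 was 0.82. The median of the other 8 members was 0.090 without it, against 0.15 with all 4 arrays, and for the A549/146b arrays it was 0.068 without replicate 1 and 0.26 without replicate 2.

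**Figure D2:**
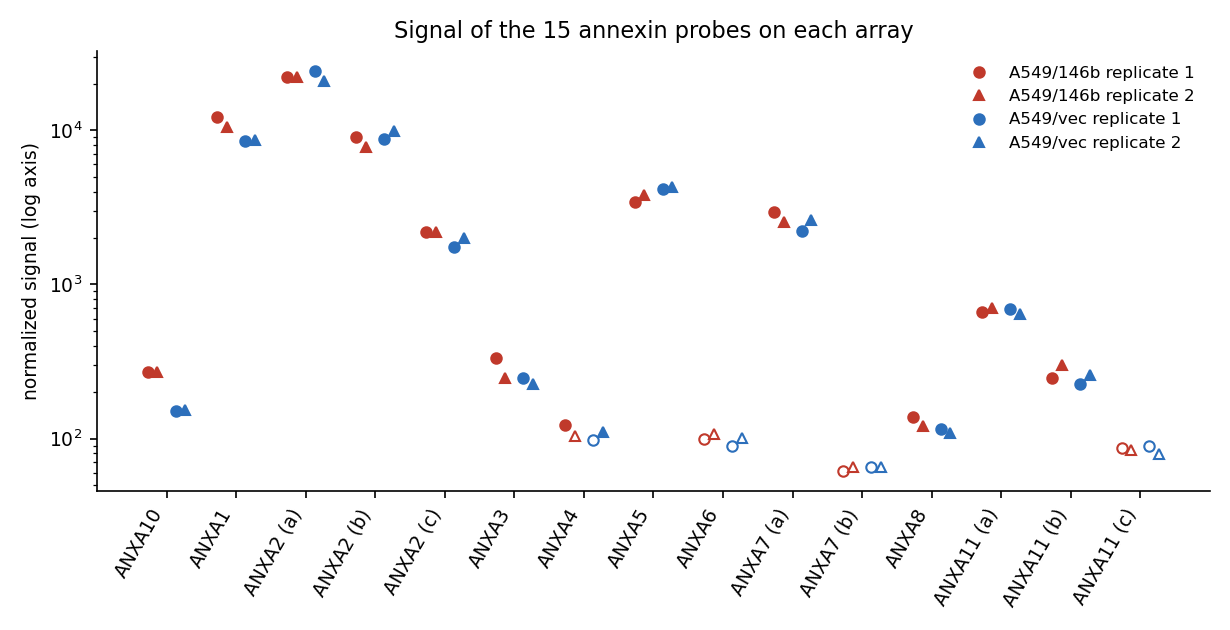
Normalized signal (log axis) of each of the 15 member probes on the A549/146b arrays (red) and the A549/vec arrays (blue), with open symbols where the detection p was 0.01 or more and letters for probes of one gene in order of signal. ANXA10 shows tight pairs near 270.1 in A549/146b and 151.7 in A549/vec. Of the 15 probes 9 overlap between the cell-lines. Of the 12 expressed ones 7 overlap, beside 5913 of 10559 expressed probes of the array, so nothing is read from this count.

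ANXA1, the glucocorticoid-induced annexin that binds formyl peptide receptors, had the next largest difference. Its signal was 12220 and 10521 in A549/146b, against 8557 and 8634 in A549/vec. Both A549/146b arrays lay above both A549/vec arrays, and the log2 scale put them 0.51 (occasion 1) and 0.29 (occasion 2) apart, with a mean of 0.40. It averaged 11370 ± 1202 in A549/146b and 8595 ± 54.7 in A549/vec (SD, n = 2 each), a ratio of 1.32. The gap between the A549/146b duplicates was 0.22 on the log2 scale, and 3.18% of expressed probes had a mean difference of larger size in either direction. It was 0.29 to 0.51 when each array was left out.

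ANXA2, which forms a complex with S100A10 under the plasma membrane, was read by 3 probes that went different ways. The brightest had 22170 and 22114 in A549/146b, against 24290 and 20720 in A549/vec, and was the brightest of all probes on the array of A549/146b replicate 1. It differed by -0.02 on the log2 scale, with -0.13 on occasion 1 and 0.09 on occasion 2, so its sign changed between occasions. The second probe had 9010 and 7790 in A549/146b and 8728 and 9866 in A549/vec, overlapping, with a mean difference of -0.15. The dimmest had 2178 and 2176 in A549/146b, above 1743 and 2009 in A549/vec, with differences of 0.32 and 0.12. ANXA2 has near-identical pseudogenes, and how far each probe also reads them was not tested, so its level is uncertain.

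ANXA5, the phosphatidylserine-binding annexin used to stain dying cells, was the only expressed member with both A549/146b arrays below both A549/vec arrays. Its signal was 3402 and 3809 in A549/146b, against 4133 and 4257 in A549/vec. Its log2 differences were -0.28 and -0.16, with a mean of -0.22. The A549/146b duplicates were 0.16 apart on that scale, and 22.0% of expressed probes had a mean difference of larger size.

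Like ANXA10, ANXA3 and ANXA8 are low-signal members with positive differences. ANXA3, known from the granules of neutrophils, had 334.5 and 247.5 in A549/146b and 248.3 and 227.2 in A549/vec. Replicate 2 of A549/146b lay just under replicate 1 of A549/vec, so the groups overlapped, and the log2 differences were 0.43 and 0.12. ANXA8, known for its high level in acute promyelocytic leukemia, had 138.0 and 120.5 in A549/146b and 115.9 and 109.3 in A549/vec, with no overlap and differences of 0.25 and 0.14. Near-identical copies of ANXA8 lie in the genome, and signal from them cannot be told apart from its own. The larger gap between duplicates was 0.43 for ANXA3 and 0.19 for ANXA8, beside mean differences of 0.28 and 0.20. Without A549/146b replicate 1 the differences were 0.060 for ANXA3 and 0.099 for ANXA8, and without A549/146b replicate 2 they were 0.49 and 0.29.

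ANXA7 and ANXA11 have long amino-terminal tails that bind the calcium sensors SRI and PDCD6, and ANXA11 ties RNA granules to lysosomes. The ANXA7 probe that was detected had 2929 and 2542 in A549/146b and 2219 and 2622 in A549/vec, with differences of 0.40 and -0.04 and overlapping groups. The brighter ANXA11 probe had 658.2 and 707.0 in A549/146b and 694.5 and 643.0 in A549/vec, with a mean difference of 0.03. A second ANXA11 probe had 247.5 and 298.9 in A549/146b and 225.8 and 258.6 in A549/vec, with differences of 0.13 and 0.21, and still overlapped. None of these 3 probes separated the cell-lines. A further probe of each gene was detected on 0 arrays, with signals of 61.5 to 65.5 for ANXA7 and 78.9 to 89.9 for ANXA11.

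ANXA4 and ANXA6 were at the limit of detection. ANXA4, an annexin of secretory epithelia, had 122.7 and 104.0 in A549/146b and 97.3 and 111.0 in A549/vec, and was detected on 1 array of each cell-line. ANXA6, whose core is duplicated, had 99.5 and 106.9 in A549/146b and 89.7 and 100.1 in A549/vec, and was detected on 0 of 4 arrays. Both overlapped between the cell-lines, and no difference is given for ANXA6. In all, 12 of the 15 member probes and 9 of the 10 genes passed the detection filter, 11 probes on all 4 arrays.

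**Figure D3:**
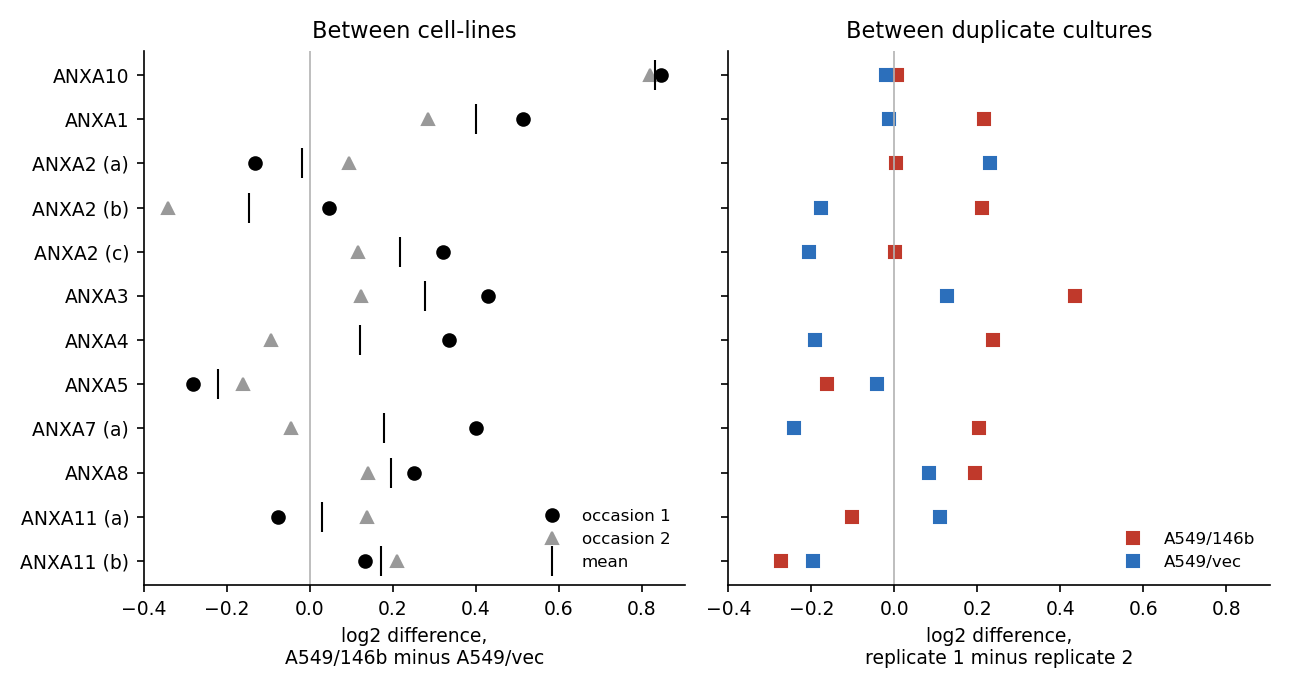
Left, log2 difference of A549/146b minus A549/vec on each occasion (symbols) and their mean (bars) for the 12 expressed member probes; right, log2 difference of replicate 1 minus replicate 2 within A549/146b (red) and A549/vec (blue) on the same axis. ANXA10 is the probe whose difference between cell-lines, 0.83, lies farthest outside the gaps between its duplicates, which are 0.0192 or less in size.

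**Figure D4:**
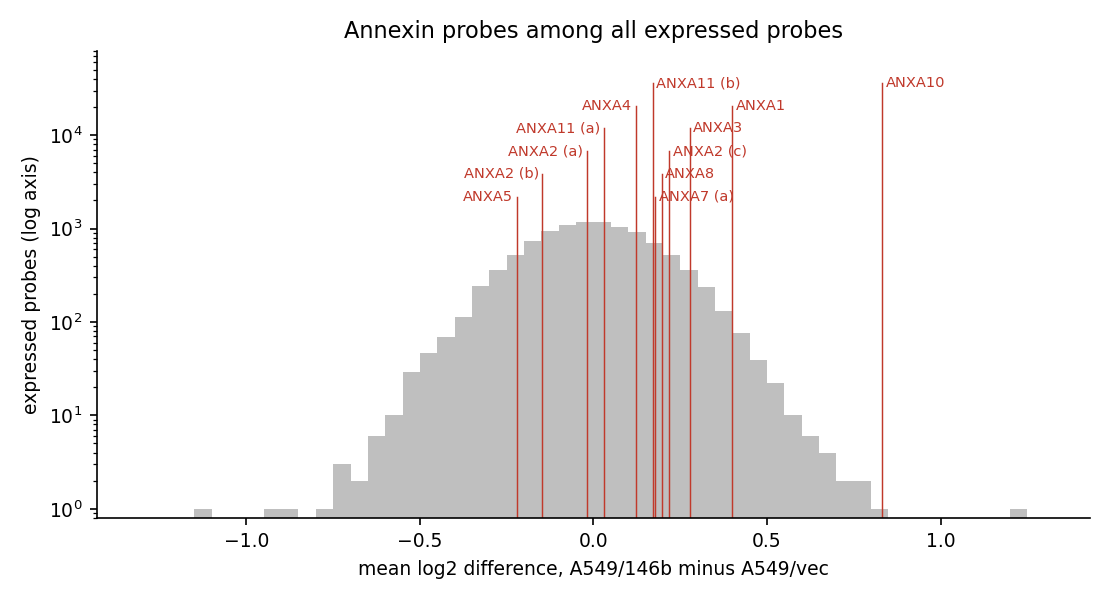
Number of expressed probes (log axis) by mean log2 difference of A549/146b minus A549/vec in bins 0.05 wide, with each expressed member probe as a red line. ANXA10 lies at 0.83 in the upper tail and ANXA1 at 0.40, while the other members lie between -0.22 and 0.28 in the body of the distribution.

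Among annexin-named genes outside the chosen members, 4 had probes. The probe of ANXA2P1, a pseudogene of ANXA2, had 4287 and 3950 in A549/146b against 2667 and 3739 in A549/vec. Its log2 differences were 0.68 and 0.08, with a mean of 0.38 (limma adjusted p = 0.200). How far this probe also reads ANXA2 itself was not tested. The distance between the occasions lay mostly in A549/vec replicate 1, the array least like the others. ANXA13, an intestinal annexin that is anchored by a fatty acid, had 278.7 and 211.9 in A549/146b against 206.5 and 205.8 in A549/vec for its brightest probe, a mean difference of 0.24 (limma adjusted p = 0.515), while a second probe overlapped and another was detected on 0 arrays. That difference was 0.040 with replicate 1 of A549/146b left out and 0.44 with its replicate 2 left out. ANXA2R, named as a receptor for ANXA2 and not itself an annexin, differed by 0.10 (limma adjusted p = 0.836). ANXA9 was detected on 0 arrays. None of these genes passed the test.

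The S100 list held 21 genes, of which 10 were expressed, including S100PBP, which binds an S100 protein and is not one. In the limma fit 0 of the 10 passed, and 0 had an unadjusted p under 0.05, beside 1293 of the 10559 expressed probes. The median log2 difference was 0.14 beside -0.0024 over all expressed probes, with 0.15 on occasion 1 and 0.050 on occasion 2. It was 0.071 without A549/vec replicate 1 and 0.087 without A549/146b replicate 2. Of the 10 genes, 8 were above 0 and 6 had both A549/146b arrays above both A549/vec arrays, which 22.0% of all expressed probes had. Without A549/vec replicate 1, a setting chosen after seeing the data, 7 of the 10 and 33.8% of all expressed probes had both A549/146b arrays above the remaining one. S100A10, the partner of ANXA2, had 14125 and 14571 in A549/146b against 12512 and 13464 in A549/vec, a mean difference of 0.14 ± 0.14 (SE, limma adjusted p = 0.743). S100A11, a partner of ANXA1, had 1861 and 1923 in A549/146b against 1524 and 1775 in A549/vec, a mean difference of 0.20 (limma adjusted p = 0.606). S100A6, which binds ANXA11 among others, differed by 0.15 and S100A2 by 0.19, again with no overlap.

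Of the penta-EF-hand proteins and calpains, a family that holds partners of ANXA7 and ANXA11, 7 were expressed, 0 passed the test, 0 had an unadjusted p under 0.05 and the median was -0.08. The members with the smallest p were CAPN2, a calcium-activated protease, at 0.24, its small subunit CAPNS1 at -0.16, PDCD6, which binds ANXA7 and ANXA11, at -0.09 and CAPN1 at -0.09. Of the genes of membrane repair and of ESCRT-III, the machinery that pinches membranes off from inside, 21 were expressed and 0 passed. Their median was -0.00097, and 1 had an unadjusted p under 0.05, beside 1293 of the 10559 expressed probes. CHMP1A had 552.0 and 585.9 in A549/146b against 755.8 and 665.7 in A549/vec, a mean difference of -0.32 (limma adjusted p = 0.325). CHMP1B, a second ESCRT-III subunit, differed by -0.22, the endocytic EHD1 by -0.20 and CAV1, the caveolar coat protein, by 0.22. Of the scramblases and flippases, which place the phosphatidylserine that annexins bind, 7 were expressed, 0 passed, 0 had an unadjusted p under 0.05 and the median was 0.03. The 4 with the smallest p were PLSCR4 at 0.25, the flippase subunit TMEM30A at 0.14, the scramblase ANO6 at 0.13 and ATP8B2 at -0.11.

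The copines and synaptotagmins are other proteins with C2 domains, which in some but not all of them bind membranes in a calcium-dependent way. They held the only called gene outside the members in these lists. SYT13 had 745.3 and 552.9 in A549/146b against 484.7 and 413.5 in A549/vec, and rose by 0.52 ± 0.14 on the log2 scale (SE, limma adjusted p = 0.0383). It was 1 of 15 expressed genes of the list, whose median was 0.08, beside 0.928% called over all expressed probes. In that list 3 genes had an unadjusted p under 0.05, as had 1293 of the 10559 expressed probes. The groups did not overlap, but the call was lost without the occasion block and held, among the alternatives, only when A549/vec replicate 1 was left out. CPNE8 had 388.5 and 386.4 in A549/146b against 255.5 and 328.0 in A549/vec, a mean difference of 0.42 (limma adjusted p = 0.141). CPNE3 differed by 0.25, and CPNE7 was not detected in A549/146b and was detected on 1 A549/vec array.

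Of the genes around ANXA1 signalling, the receptors FPR1, FPR2 and FPR3 and the phospholipase PLA2G4A were detected on 0 arrays. The 3 expressed genes were PTGS2 and PTGES of prostaglandin synthesis and the phospholipase PLA2G4C. In the limma fit 0 of them were called and 2 had an unadjusted p under 0.05, beside 1293 of the 10559 expressed probes. PTGS2 had 1837 and 2285 in A549/146b against 1209 and 2118 in A549/vec, a mean difference of 0.36 (limma adjusted p = 0.252). PTGES had 1882 and 1771 in A549/146b against 2939 and 1795 in A549/vec, a mean difference of -0.33 (limma adjusted p = 0.306), and PLA2G4C differed by 0.04. All 3 overlapped between the cell-lines, and without A549/vec replicate 1 each changed sign, to -0.048, 0.025 and -0.41.

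**Figure D5:**
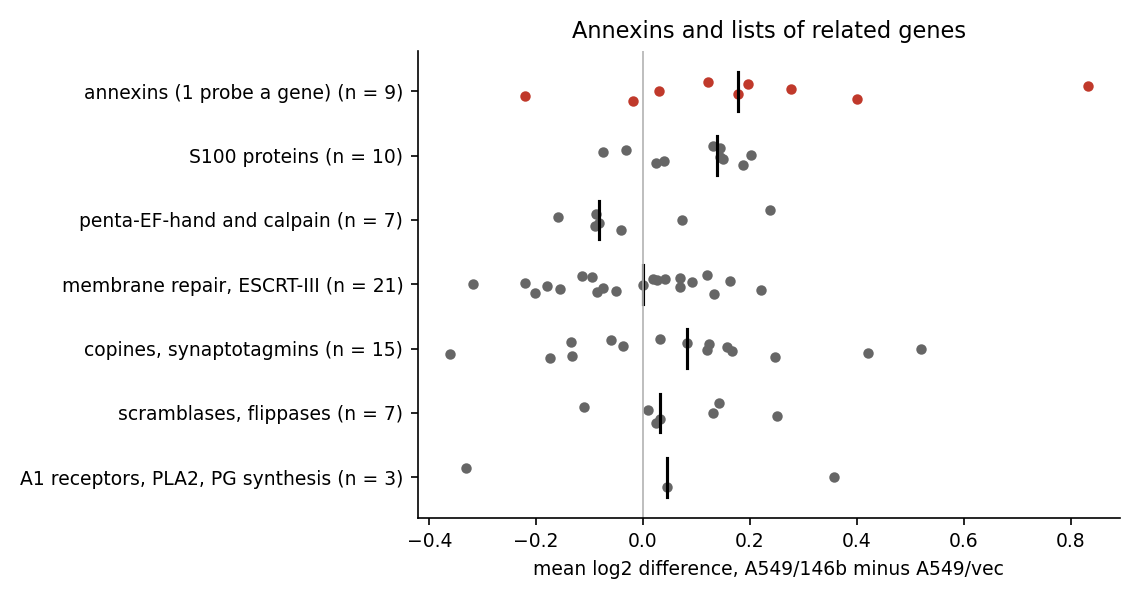
Mean log2 difference of A549/146b minus A549/vec for the expressed genes of the annexin members and of 6 lists of partners and pathways, 1 point a gene with 1 probe each, and a black bar at the median. The annexins (red) have a median of 0.18 with ANXA10, which was chosen for its difference, and 0.15 without it. All the annexins were chosen with this contrast known, so their median is a description. The S100 list has a median of 0.14, and the medians of the other 5 lists plotted lie between -0.08 and 0.08.

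The 3 nearest genes with a probe on each side of ANXA10 on its chromosome were also read. SPOCK3, TLL1 and CPE on one side and DDX60, the nearest on the other, were detected on 0 arrays. PALLD, which codes for the actin scaffold palladin, had 2107 and 1740 in A549/146b against 1520 and 1386 in A549/vec, a mean difference of 0.40 (limma adjusted p = 0.168). CBR4, a mitochondrial reductase, had 244.2 and 233.2 in A549/146b against 193.8 and 215.1 in A549/vec, a mean difference of 0.23 (limma adjusted p = 0.550). Neither passed the test. Both had both A549/146b arrays above both A549/vec arrays, as had 22.0% of all expressed probes, so nothing is read from this. Whether it goes with the ANXA10 difference was not tested.

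The 5 probes most like ANXA10 over the 4 arrays were found by the distance between their log2 signals, each centred on its own mean. They were BCHE (distance 0.151), UGT1A7 (0.175), CDH2 (0.185), FILIP1 (0.200) and TNRC6B (0.220), beside a median of 0.849 over 9657 other expressed probes. With only 4 arrays, any gene with a difference of this size between the cell-lines comes near ANXA10, so the likeness is a description. CDH2, which codes for N-cadherin, had 1952 and 1765 in A549/146b against 1151 and 1007 in A549/vec. TNRC6B, a partner of Argonaute, had 350.7 and 312.1 in A549/146b against 193.7 and 219.5 in A549/vec. BCHE, butyrylcholinesterase, UGT1A7, a glucuronosyltransferase whose last exons are shared with the other UGT1A genes, and FILIP1, a filamin-binding protein, were not detected in A549/vec. Against the lowest detected signals there they were at least 1.25-fold, 1.64-fold and 1.29-fold higher in A549/146b.

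Marker genes were read to place the cells in which ANXA10 was measured. Of 22 gastric mucosa markers on the array, 3 were expressed, AGR2, FOXQ1 and SOX2, and their summed level with the undetected ones was 2325 to 2445 in A549/146b and 2292 to 2342 in A549/vec. Of 11 alveolar type II markers, 3 were expressed, ABCA3, ETV5 and LPCAT1, at 2135 to 2230 in A549/146b and 2117 to 2228 in A549/vec. Of 6 simple epithelial markers, 5 were expressed, CDH1, KRT7, KRT8, KRT18 and KRT19, at 11759 to 12558 in A549/146b and 11806 to 17568 in A549/vec. The sums overlapped for all 3 lists. Most gastric and alveolar markers were undetected and add background signal to their sums, so the overlap of those sums says little about marker levels. The 5 simple epithelial markers all had a mean difference below 0, with a median of -0.20, at -0.45 on occasion 1 and 0.054 on occasion 2. Their part in the annexin values was not tested. The fibroblast list had 2 of 10 expressed (ACTA2, PDGFRA), the leukocyte list 2 of 9 (CD14, CD68) and the endothelial list 0 of 8. None of the expressed marker genes passed the test. KRT19, a keratin of simple epithelia, came nearest with a mean difference of -0.50 (limma adjusted p = 0.0515), which was -0.19 without A549/vec replicate 1. Its groups overlapped, with 2530 and 1708 in A549/146b against 3645 and 2369 in A549/vec.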

How the data were processed

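RNA of A549/146b and A549/vec cells, harvested with trypsin, was read on 4 Illumina HumanRef-8 arrays. The authors deposited GenomeStudio signal intensities, detection p-values of each signal against negative control beads, and normalized intensities on a linear scale, made with lumi 1.14 under R 2.11.1. The array's annotation gives 1 symbol for 21834 of 24526 probes. Here log2 of the normalized intensities was fitted with limma 3.58.1 in R 4.3.3 for the 10559 probes detected (p below 0.01) on 1 array or more. The fit had the occasion as a block, and p-values were adjusted over all these probes by Benjamini and Hochberg's method.

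The members, the gene lists and the alternatives were chosen with earlier results of these data known. Named are all member probes and the annexin-named genes outside the members. Called genes and up to 4 genes of smallest p in each list are also named. So are 3 neighbours on each side of ANXA10 and the 5 probes nearest to it in pattern. One probe a gene was used for lists, the brightest expressed one. The pairing comes from the study's statement that both cell-lines were grown concurrently and from the numbers in the labels; arrays of the same number did not deviate together (r = -0.05). Duplicates were separate cultures of 1 population, and p-values measure spread between cultures only. Limma pooled that spread over all expressed probes, with 1025 prior against 1 residual degree of freedom. Each p-value and SE thus rests almost wholly on the shared spread and not on a gene's own duplicates. The SEs of S100A10 and SYT13 were 0.143 each. With 2 arrays against 2, the smallest two-sided exact permutation p is 0.333, and no such test was run. The number of arrays limits the precision. A probe not detected in a cell-line was bounded by the lowest detected signal of each array. The alternatives were no block, leaving out each array, detection on all 4 arrays, no filter, neqc, quantile normalization, a pseudocount of 16 and a trended prior variance. Each fit that left out an array also had no block and set 2 arrays against 1. Protein sequences were not used here.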

Additional observations from a re-analysis of the deposited data

How the results depend on the processing

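With no block, detection on all 4 arrays, no filter or a trended prior the log2 difference of ANXA10 could not change. It stayed positive in the other alternatives, at 0.82 to 0.84 when each array was left out. It was 1.10 with neqc, 0.90 with quantile normalization and 0.77 with a pseudocount of 16. The probe was called in the alternatives with all 4 arrays, except with no filter, and ANXA10 was chosen by this difference. The median of the 8 other expressed members stayed positive, at 0.07 to 0.26 when arrays were left out, and 0 of their probes were called except 1, that of ANXA1, under a trended prior variance. Among the members, the brightest ANXA2 probe turned to 0.096 without A549/vec replicate 1 and to 0.021 with neqc and quantile normalization, and the brighter ANXA11 probe to -0.026 without A549/vec replicate 2 and -0.022 without A549/146b replicate 2. Leaving out each array gave -0.25 to -0.043 and 0.12 to 0.32 for the other ANXA2 probes, 0.060 to 0.49 for ANXA3, 0.0019 to 0.24 for ANXA4, -0.30 to -0.14 for ANXA5, 0.057 to 0.30 for ANXA7, 0.099 to 0.29 for ANXA8, 0.034 to 0.31 for the second ANXA11 probe, 0.14 to 0.63 for ANXA2P1, 0.013 to 0.19 for ANXA2R and 0.040 to 0.44 for ANXA13. The count of called probes moved most. It was 98 with the occasions paired and 12 with no replicate block, 33 with detection on all 4 arrays, 21 with neqc, 52 with the pseudocount, and 12 to 868 without 1 array, the highest without A549/vec replicate 2. With all probes of the array limma called 0, with 1984 at an unadjusted p under 0.05. The cause of these moves was not tested. In the copine and synaptotagmin list, 1 gene (SYT13) was called, but 0 with no replicate block, with detection on all 4 arrays, with all probes, neqc, quantile normalization, the pseudocount or the trended prior, and 0 to 2 without 1 array. Its median of 0.08 was 0.12, 0.14, 0.095 and 0.073 with detection on all arrays, neqc, quantile normalization and the pseudocount, and -0.0024 to 0.085 without 1 array. Without 1 array the medians were 0.071 to 0.16 for the S100 list, -0.13 to -0.031 for the penta-EF-hand list, -0.039 to 0.0071 for membrane repair, -0.0036 to 0.12 for scramblases and flippases, and -0.12 to 0.50 for the ANXA1 signalling genes, of which 0 to 3 were then called. Signs turned without 1 array for PTGS2 (-0.048 to 0.76), PTGES (-0.69 to 0.025), PLA2G4C (-0.41 to 0.50), PLSCR4 (-0.020 to 0.52), ATP8B2 (-0.23 to 0.0049) and PDCD6 (-0.21 to 0.031). KRT19 was called under the trended prior and without A549/vec replicate 2 or A549/146b replicate 1. With 2 arrays a cell-line, low-signal members such as ANXA4, ANXA6 and ANXA8 are limited by their closeness to background. This also holds for the size of the ANXA10 difference. Its signals of 150.7 and 152.7 in A549/vec stood against lowest detected signals of 111.1 and 104.3 on those arrays.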
